A study of Lupinus albus with 12 samples.

Results

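The last step of a short sucrose time course in white lupin roots was compared here: roots kept for 20 min in sucrose against roots kept for 15 min. The comparison was between 6 of the 12 libraries of the study. Its members were the 16714 of 23427 genes that reached a value of 1 in 3 or more of those 6 libraries. The plants were wildtype white lupin (Lupinus albus) of the cultivar Amiga, grown with their roots in Hoagland nutrient solution, and the sampled tissue was root sections that include the tip. The groups were sucrose for 20 min (3 libraries) and sucrose for 15 min (3 libraries), both at a final concentration of 10 mM sucrose. Roots at 10 min in sucrose and untreated control roots (3 libraries each) gave context. They also entered the fit through the spread, so they bear on the p-values and calls. PolyA RNA was converted to barcoded cDNA and read on Oxford Nanopore flow cells, and all 4 libraries of a replicate number shared 1 flow cell. The labels describe 3 plants for each replicate, whereas the methods describe 1 plant, so how many plants a library stands for is not settled.

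Sucrose is the main form in which plants move carbon from leaves to roots, and it also acts as a signal there. Roots sense it through changes in energy and hormone signalling, and early responses include transcription factors that set later gene expression, wall-loosening proteins and stress enzymes. White lupin is known for cluster roots, dense brushes of short rootlets that release organic acids and phosphatases to free phosphate and iron, and sugar supplied from outside can bring on their formation.

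The values deposited for each gene are whole numbers that summed to 303115, 356992 and 339599 in the 20 min libraries and to 196413, 298356 and 380571 in the 15 min libraries. They are named CPM, but their totals differ too much for that unit, so they are called deposited values below, and the read depth behind them is unknown. Most genes had low values: 10150 of the 16714 genes (60.7%) averaged under 5 over the 6 libraries. A photosystem and light-harvesting list, a check for shoot tissue, took 0.134%, 0.129% and 0.948% of the total at 20 min (flow cells 1, 2 and 3). At 15 min it took 0.186%, 0.126% and 0.455%, so flow cell 3, which holds the plants of replicate 3, stood apart at both times. Of the root markers, 29 of 40 Casparian strip proteins and 28 of 32 aquaporins passed the filter. So did 71 of 119 genes of the photosystem list and 16714 of all 23427 genes, so nothing about tissue is read from these counts.

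Few genes were called between 20 and 15 min. Using the thresholds of the study (a log2 FC of 1.5 or more in either direction, with an unadjusted p no higher than 0.05), limma on log2(value + 1) called 36 genes higher at 20 min (0.215% of the 16714 tested) and 18 lower (0.108%). No gene had a Benjamini-Hochberg adjusted p of at most 0.05 in limma. At an unadjusted p of at most 0.05 there were 370 genes (2.21%), 308 of them higher (1.84%) and 62 lower (0.371%). With no difference at all, a cut of 0.05 would pass a fraction of about 0.05 of genes. That is more than was seen. The share was 3.95% among genes with a mean value under 2 and 0.18% among those with a mean of at least 100. A cut that passes so few of the high genes is not calibrated, so the 370 genes show neither an excess nor the lack of one. The lowest adjusted p was 0.931, and over the 16 other settings it lay between 0.0541 and 1. Of the called genes, 2 had an adjusted p of 0.931 and all others 1. For a single gene, 3 libraries against 3 cannot give an exact two-sided permutation p below 0.1, which is what each gene with no overlap between groups has. Because none of the calls passed the adjustment, the genes below describe where these libraries differed most. A mean value under 5 was found for 23 of the 36 and 13 of the 18 genes, beside 60.7% of all genes tested. Single libraries moved the counts. Without 20 min replicate 1 there were 68 genes higher and 34 lower, without 20 min replicate 3 there were 59 and 48, without 15 min replicate 2 there were 94 and 28, and without 15 min replicate 3 there were 145 genes higher.

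All genes together were shifted upward at 20 min. The median log2 FC was 0.195, with 66.7% of genes above 0, and it was 0.0194 once libraries were scaled by median-of-ratios size factors. Without 15 min replicate 1, the library with the lowest total of the 6, the median was 0.0175. After the scaling, 22 genes were called higher (0.132%) and 21 lower (0.126%), of which 22 and 17 were among the 36 and 18. The excess of higher over lower calls was thus not present under that scaling. Within flow cells 1, 2 and 3 the median differences were 0.415, 0.0525 and 0, and with flow cell as a block in the fit 48 genes were called higher (0.287%) and 27 lower (0.162%).

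**Figure D1:**
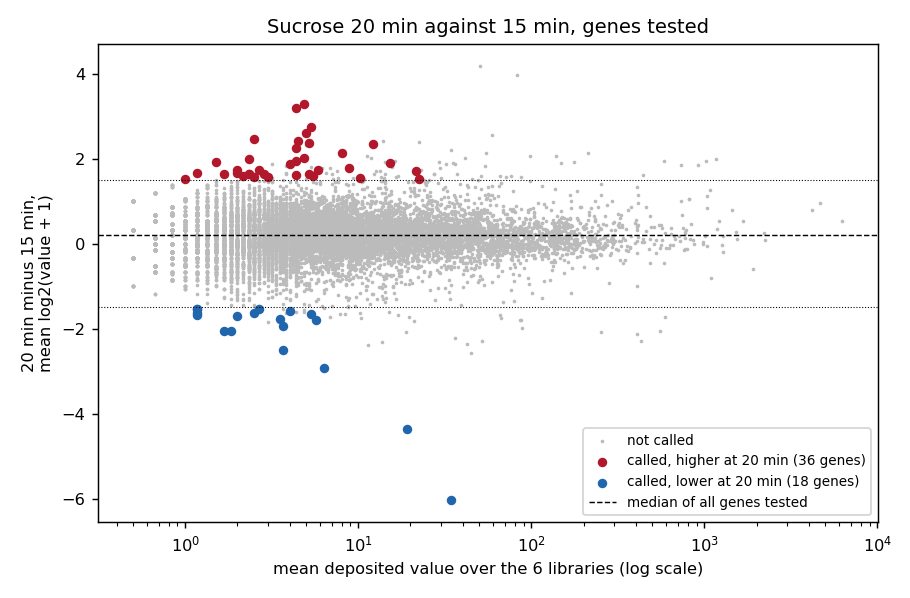
Difference between 20 and 15 min (mean log2(value + 1) at 20 min minus that at 15 min) against the mean deposited value over the 6 libraries (log scale) for 16714 genes. Red and blue points are the 36 genes called higher and the 18 called lower, dotted lines mark 1.5 in either direction, the dashed line is the median of 0.195, and all but 3 of the called genes lie below a mean value of 20.

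Transcription factors, the proteins that switch other genes on or off, made up 8 of the 36 genes called higher (22.2%) and 1 of the 18 called lower (5.56%), where 1464 of all genes tested (8.76%) carry such a name. This share was looked at after the calls were seen and was not tested. The families were AP2-EREBP, WRKY, MYB-HB-like (3 genes), C2H2, TCP and ZF-HD for the higher genes and HD-ZIP for the lower gene.

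The AP2-EREBP gene Lalb_Chr07g0181311 (chromosome 7, 2268155 to 2269227) belongs to the family that holds the ethylene response factors. Its deposited values were 7, 5 and 16 in the 20 min libraries and 2, 0 and 1 in the 15 min libraries. Every 20 min library was above every 15 min library, and the control (0, 0 and 0) and 10 min libraries (0, 0 and 1) were as low as those of 15 min. The log2 FC was 2.36 ± 0.50 (SE), and it stayed past both thresholds when any 1 of the 6 libraries was left out (1.93 to 2.72). Of the 95 AP2-EREBP genes tested it was the single one called, and the family median of 0.195 was that of all genes.

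The WRKY gene Lalb_Chr07g0182001 (chromosome 7, 2614303 to 2615912) comes from a family best known for stress and defence responses. It had values of 2, 7 and 6 in the 20 min libraries and was listed at 0 in all 3 libraries of 15 min. The 20 min libraries did not stand apart from the earlier ones, since the gene had values of 3, 2 and 7 at 10 min and 2, 0 and 5 in control roots. No other of the 56 WRKY genes tested was called.

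Of the 153 MYB-type genes, 3 were called higher and none lower (1.96%, beside 0.323% of all genes called), and 7 had an unadjusted p of at most 0.05 (4.58%, beside 2.21% of all genes). The difference in these shares was not tested. Lalb_Chr18g0050421 (chromosome 18, 9662522 to 9664185) had values of 1, 3 and 3 at 20 min and was listed at 0 in the 3 libraries of 15 min, and in the control and 10 min libraries it was above 0 in a single library. Lalb_Chr22g0349721 (chromosome 22, 181748 to 183279) had 5, 3 and 1 in control roots, so the control reached the 20 min range, and 1, 2 and 1 at 10 min. It had 5, 6 and 4 at 20 min and 1 in each library of 15 min. The groups were apart, with a log2 FC of 1.57 ± 0.41, but the log2 FC was 1.40 after median-of-ratios scaling, 1.42 after scaling to equal totals and 1.45 without 20 min replicate 2, all short of the threshold. Lalb_Chr21g0313321 (chromosome 21, 5560480 to 5562769) had 4, 2 and 9 in control roots, which reached into the 20 min range, and 2, 2 and 5 at 10 min. It had 5, 5 and 14 at 20 min and 0, 2 and 5 at 15 min. The groups met at a value of 5, and the call (log2 FC 1.64 ± 0.68) was lost without replicate 3 of 20 min and without replicate 1 or 2 of 15 min, with log2 FC between 0.94 and 2.23 over the 6 fits.

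The C2H2 zinc finger gene Lalb_Chr12g0201311 (chromosome 12, 3098399 to 3100255) had values of 2, 1 and 4 in control roots, which reached the 20 min range, and 2, 1 and 2 at 10 min. It had 3, 5 and 4 at 20 min and 0, 1 and 1 at 15 min (log2 FC 1.64 ± 0.43). The groups were apart by a small margin, and the call was lost without 20 min replicate 2 or 15 min replicate 1, with a log2 FC as low as 1.30. The remaining called transcription factors lie outside the rule by which genes are named here and were chosen after their values were seen. The TCP gene Lalb_Chr19g0137091, of a family that controls cell division in growing organs, had 2, 2 and 7 at 20 min and 0, 0 and 1 at 15 min. The ZF-HD gene Lalb_Chr13g0303251 had 11, 24 and 5 at 20 min and 0, 10 and 3 at 15 min, so its groups overlapped. Its control values of 10, 9 and 11 lay inside the 20 min range. The HD-ZIP gene Lalb_Chr17g0342891 was lower, with 1, 0 and 6 at 20 min and 17, 3 and 5 at 15 min, and its groups overlapped too. None of these 3 calls was stable. The TCP call was lost without replicate 3 of 20 min and without replicate 1 or 2 of 15 min (log2 FC 1.25 to 2.06 over the 6 fits). The ZF-HD and HD-ZIP calls were lost without replicate 1 or 2 of 20 min and without replicate 1 or 3 of 15 min (0.87 to 2.60 for ZF-HD and -2.42 to -1.01 for HD-ZIP), and the HD-ZIP call also after median-of-ratios scaling (log2 FC -1.76, unadjusted p above 0.05).

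**Figure D2:**
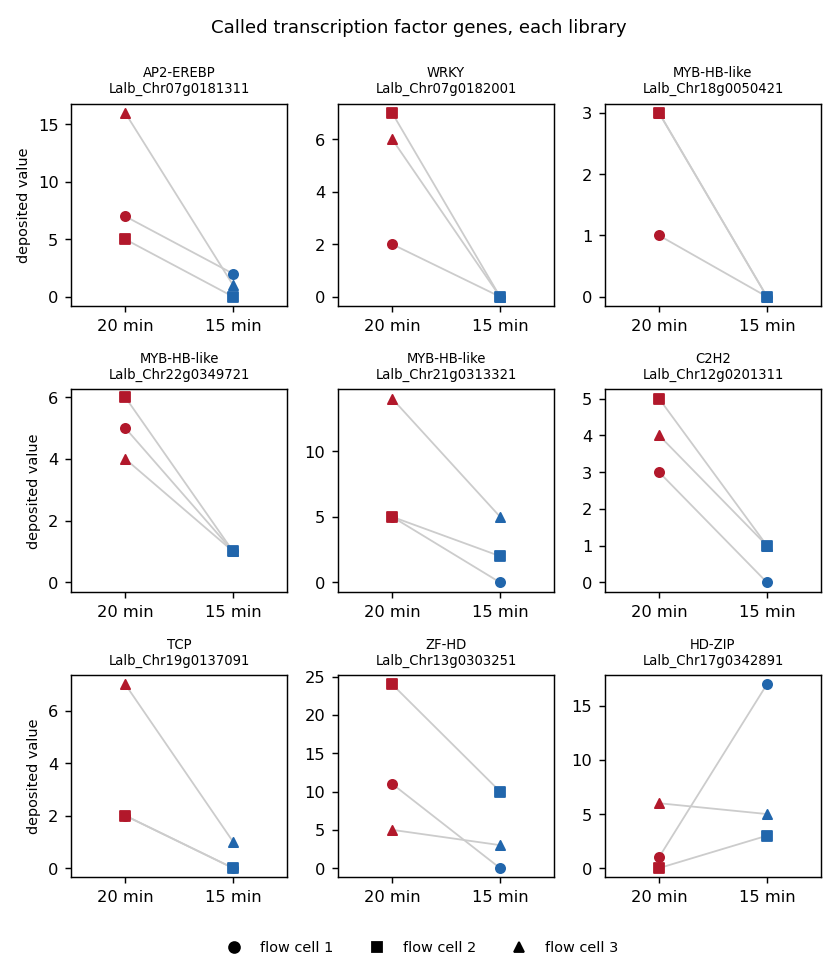
Deposited value of the 9 called transcription factor genes in each 20 min library (red, left) and each 15 min library (blue, right), with grey lines joining libraries of 1 flow cell. The AP2-EREBP gene had 7, 5 and 16 against 2, 0 and 1, and the HD-ZIP gene is the one that was lower at 20 min, with 17 in a single 15 min library.

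The gene with the smallest p was Lalb_Chr13g0302081 (chromosome 13, 14648825 to 14649182), annotated as an ovule protein. It had values of 7, 16 and 6 at 20 min and was listed at 0 in all 3 libraries of 15 min. Control roots were also at 0 in all libraries, and 1 of the 10 min libraries had a value of 4. Leaving out any library kept the call.

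Lalb_Chr03g0039781 (chromosome 3, 16719211 to 16719872), annotated only as an encoded peptide, had 6, 12 and 9 at 20 min and 0, 3 and 0 at 15 min (log2 FC 2.61 ± 0.69), with 3 or less in every control and 10 min library. The glycerophosphodiester phosphodiesterase gene Lalb_Chr02g0156671 (chromosome 2, 14614212 to 14614627) belongs to the enzymes that split glycerophosphodiesters, products of phospholipid breakdown. White lupin roots use such enzymes under phosphate shortage. The gene had 11, 10 and 8 at 20 min and 0, 0 and 3 at 15 min (log2 FC 2.74 ± 0.79). The groups were apart, yet control roots (16, 2 and 20) and 10 min roots (12, 5 and 23) spanned the 20 min values. Outside the naming rule, and chosen after their values were seen, an arabinogalactan peptide gene of the cell wall (Lalb_Chr09g0331161) had 14, 2 and 9 at 20 min, against 0, 0 and 2 at 15 min. Its groups met at 2, and its control values were 0, 0 and 3. An Exo70 gene of the exocyst, the complex that tethers secretory vesicles (Lalb_Chr10g0103601), had 5, 12 and 9 at 20 min, against 0 in all libraries of 15 min, but 14, 18 and 0 at 10 min and 6, 0 and 0 in control roots, so 2 of the 10 min values were above every 20 min value. Both genes kept their calls when any library was left out. The 2 further genes of the leading 10, Lalb_Chr05g0215251 (2, 5 and 2 at 20 min) and Lalb_Chr10g0105401 (1, 3 and 2 at 20 min), are uncharacterized and were listed at 0 in all libraries of 15 min. The call of Lalb_Chr10g0105401 was lost without 20 min replicate 2, after median-of-ratios scaling and after scaling to equal totals.

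Of the 18 genes lower at 20 min, 10 were uncharacterized, beside 15 of the 36 higher genes. In 7 of the 18 all 3 libraries of 20 min were listed at 0, and in 6 of the 36 all 3 libraries of 15 min. The share over all genes is not given for these counts, so nothing is read from them. Lalb_Chr00c21g0405481, a short gene of 323 bases on an unplaced contig, had 5, 0 and 0 at 20 min and 42, 36 and 32 at 15 min. The groups were far apart, and the control (36, 9 and 62) and 10 min values (21, 6 and 13) all lay above those at 20 min. The log2 FC was -4.37 ± 0.79 and ranged from -5.23 to -3.93 when libraries were left out.

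Lalb_Chr09g0320861 (chromosome 9, 675337 to 675572) was listed at 0 in all libraries of 20 min and had 40, 88 and 77 at 15 min. Apart from a value of 187 in 10 min replicate 3, it was at 0 in the control and 10 min libraries, so an on-or-off pattern was seen between libraries of the same group as well. Such patterns were not rare: of 959 genes that reached 100 in any of the 6 libraries, 62 were listed at 0 in another of the 6. In 39 genes this held within the 20 min group and in 30 within the 15 min group.

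Lalb_Chr09g0321801 (chromosome 9, 1195161 to 1195855) had 2, 3 and 1 at 20 min and 6, 13 and 9 at 15 min (log2 FC -1.78 ± 0.51). At 10 min the values were 8, 23 and 15, and in control roots 1, 0 and 2, so the 20 min libraries were near the control ones and the 10 and 15 min libraries were high. Lalb_Chr22g0354181 had 0, 1 and 0 at 20 min and 6, 3 and 12 at 15 min, and Lalb_Chr17g0346961 had 2, 0 and 0 at 20 min and 23, 5 and 8 at 15 min, both with no overlap and both called in all 6 fits with a library left out. The DUF761 gene Lalb_Chr25g0279481 had 1, 0 and 1 at 20 min and 14, 4 and 2 at 15 min, and its call was lost without 15 min replicate 1 (log2 FC -1.29). The remaining genes of the leading 10 were at 0 in all libraries of 20 min: Lalb_Chr11g0074531, a diacylglycerol O-acyltransferase of the storage lipid pathway (3, 1 and 3 at 15 min), and the uncharacterized Lalb_Chr02g0153931 (2, 7 and 2), Lalb_Chr21g0309711 (2, 3 and 5) and Lalb_Chr23g0276751 (2, 4 and 1). The last of these lost its call without 15 min replicate 2.

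Few genes with higher values were called. Of 2431 genes with a mean value of at least 20, 3 were called (0.123%), and at an unadjusted p of at most 0.05 there were 9 higher (0.37%) and 1 lower (0.0411%). These shares are under the fraction of 0.05 that the cut would pass with no difference, and the fit had no flow cell term. They therefore do not show how many of these genes differed. The glutathione transferase gene Lalb_Chr05g0217501 (chromosome 5, 3801898 to 3803223), of an enzyme family that attaches glutathione to reactive compounds, had 28, 41 and 27 at 20 min and 8, 25 and 5 at 15 min. The groups were apart by 2 units, and the log2 FC was 1.53 ± 0.61. The 10 min values (33, 23 and 14) reached into the 20 min range, and those of control roots were 21, 7 and 5. The call was lost after median-of-ratios scaling (log2 FC 1.31, unadjusted p above 0.05), after scaling to equal totals (1.30) and without replicate 2 of 20 min, and without replicate 1 or 3 of 15 min (log2 FC 1.08 to 2.14 over the 6 fits). A second glutathione S-transferase gene, Lalb_Chr18g0054171, was also called higher, with 2, 6 and 15 at 20 min and 2, 1 and 0 at 15 min, and its groups met at 2. That call was lost without replicate 2 or 3 of 20 min and without replicate 3 of 15 min (log2 FC 1.33 to 2.54). The non-specific lipid-transfer protein gene Lalb_Chr07g0190741, a carrier of lipids in the cell wall, had 54, 19 and 26 at 20 min and 4, 18 and 8 at 15 min (log2 FC 1.71 ± 0.77). Its groups were apart by 1 unit, while the 10 min (46, 12 and 23) and control values (38, 4 and 14) overlapped both. The call was lost after either scaling (unadjusted p above 0.05) and without replicate 1 or 3 of either time (log2 FC 1.24 to 2.21).

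Other genes with high values had an unadjusted p of at most 0.05 but a log2 FC below the threshold. The chitinase gene Lalb_Chr15g0079161, of the enzymes that cut fungal wall chitin, had 125, 142 and 226 at 20 min and 35, 89 and 73 at 15 min (log2 FC 1.36 ± 0.57). The glycine-rich protein gene Lalb_Chr09g0334391 had 92, 135 and 100 at 20 min and 32, 70 and 41 at 15 min (log2 FC 1.23 ± 0.51). In both genes the groups did not overlap, but the 10 min values (112, 84 and 151 for chitinase, 159, 73 and 87 for the glycine-rich protein) reached into the 20 min range. Control values of chitinase (82, 21 and 95) lay below that range. Those of the glycine-rich protein were 118, 35 and 45, with 118 inside it. The prohibitin gene Lalb_Chr03g0032011, for a scaffold of the inner mitochondrial membrane, had 44, 53 and 148 at 20 min and 33, 42 and 28 at 15 min (log2 FC 1.03 ± 0.44), and without the high 20 min replicate 3 the log2 FC was 0.50. The uncharacterized Lalb_Chr10g0102711 had 27, 40 and 41 at 20 min and 24, 15 and 13 at 15 min (log2 FC 1.03 ± 0.41). Its control values were 24, 49 and 26, with 49 above every 20 min value, while those of prohibitin (31, 29 and 33) were below its 20 min values. After median-of-ratios scaling the unadjusted p of these last 2 genes was above 0.05.

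On the lower side, the plastid-type ribosomal gene Lalb_Chr07g0191831 (uS15c, chromosome 7, 11184909 to 11185351) had 6, 0 and 96 at 20 min and 71, 28 and 68 at 15 min. The 20 min libraries themselves spanned the whole range, and the log2 FC of -2.58 ± 1.21 had an unadjusted p above 0.05. With flow cell as a block the unadjusted p was below 0.05, so the gene was called in that fit, as it was after median-of-ratios scaling (log2 FC -2.69). Leaving out 1 library moved its log2 FC between -4.31 and -1.01, and it was called in 1 of these 6 fits, the one without 20 min replicate 3. The NAD(P)H-quinone oxidoreductase subunit 1 gene Lalb_Chr07g0191801, at 11181349 to 11181918 on the same chromosome, had 7, 19 and 16 at 20 min and 38, 18 and 24 at 15 min. Neither this gene nor the next ones had an unadjusted p of at most 0.05 in limma over all 12 libraries without scaling. The translation initiation factor SUI1 gene Lalb_Chr10g0107011 had 17, 21 and 14 at 20 min and 32, 24 and 23 at 15 min. The uncharacterized Lalb_Chr13g0300601 had 978, 722 and 610 at 20 min and 1217, 887 and 2143 at 15 min. After median-of-ratios scaling the unadjusted p of Lalb_Chr13g0300601 was below 0.05 (log2 FC -1.04, short of the threshold).

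**Figure D3:**
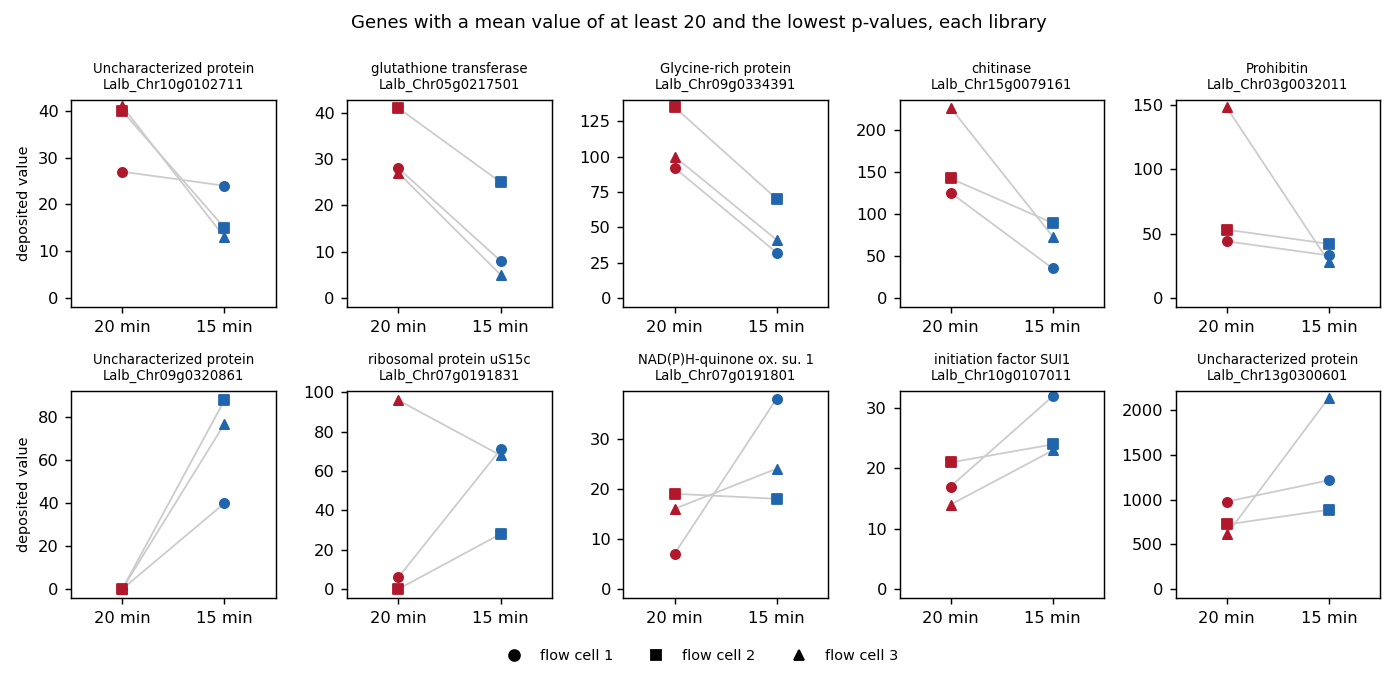
Deposited value in each 20 min library (red, left) and each 15 min library (blue, right) for the 5 higher (top) and 5 lower (bottom) genes with the smallest p among genes with a mean value of at least 20. The top row shows no overlap between groups, for example 125, 142 and 226 against 35, 89 and 73 for chitinase, and uS15c in the bottom row has 96 in flow cell 3 beside 6 and 0 in the other flow cells at 20 min.

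Of the 36 genes called higher, 25 had all 20 min libraries above all 15 min libraries, against 404 of all genes tested (2.42%), and 35 were higher within all 3 flow cells, against 1646 (9.85%). Of the 18 called lower, 13 had all 20 min libraries below those of 15 min, against 65 of all genes (0.389%), and 17 were lower within all 3 flow cells, against 248 (1.48%). The calls used these same values, so nothing is read from these counts. Over the 6 fits that each left out a library, 11 of the 36 and 8 of the 18 stayed called throughout.

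The control and 10 min libraries entered the fit only through the spread. With the 15 and 20 min libraries alone, 29 of the 36 and 16 of the 18 stayed called. The lowest adjusted p in that limma fit was 0.0643. The called genes were chosen for a gap between 20 and 15 min, so the counts that follow describe where the earlier libraries lay, and no time point is singled out from them. For 10 of the 36 higher genes the 20 min mean was above both the control and the 10 min mean while the 15 min mean was not below both. For 3 genes the 15 min mean alone was beyond, and for 23 genes both were, with 20 min above and 15 min below the 2 earlier groups. In 4 of the 36 genes every 20 min library was above all the other 9 libraries, and in 1 every 15 min library was below the other 9. Of the 18 lower genes, the 15 min mean alone was beyond in 6, the 20 min mean alone in 1, both in 10 and neither in 1. In 1 of the 18 every 20 min library was below the other 9, and in 0 every 15 min library was above them. The share over all genes is not given for these counts, so nothing is read from them. The number of the 36 genes listed at 0 was 7, 14 and 10 in control libraries and 13, 6 and 10 at 10 min.

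**Figure D4:**
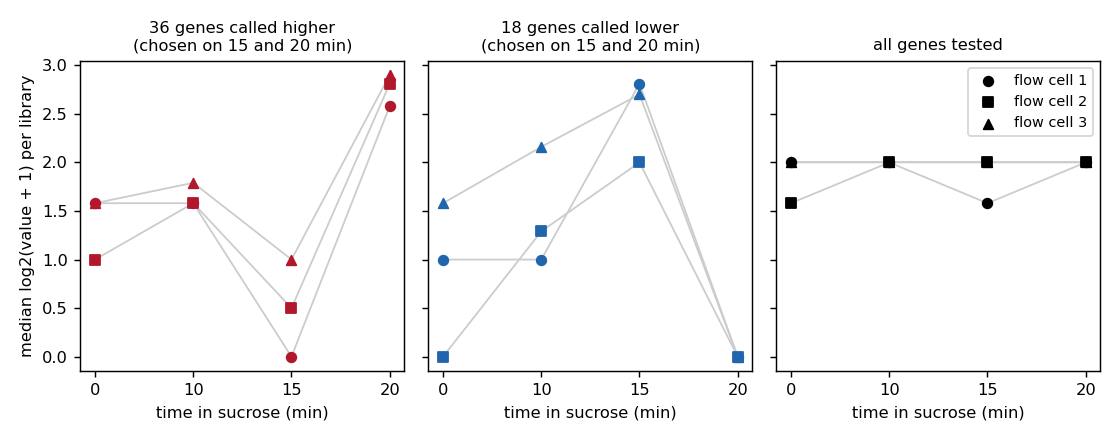
Median log2(value + 1) in each of the 12 libraries, by time in sucrose (min), over the 36 genes called higher, the 18 called lower and all 16714 genes tested, with grey lines joining libraries of 1 flow cell. For the 36 genes the 20 min libraries had 2.58, 2.81 and 2.9, those of 15 min had 0, 0.5 and 1, and the earlier ones 1 to 1.79. Since the genes were chosen on 15 and 20 min, the gap between these times is not a finding.

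Gene groups were examined by 37 lists drawn from protein names. In 29 of them no member was called. Ethylene synthesis and signalling (21 genes tested) had none called and none with an unadjusted p of at most 0.05 in limma, with a median log2 FC of 0.32, or 0.098 after median-of-ratios scaling, beside 0.195 and 0.0194 for all genes. The same counts of 0 and 0 held for small auxin-up RNA genes (48 tested, median 0.308), for auxin response factors, Aux/IAA and auxin carriers (51, 0.195), for CLE, RALF and other signalling peptides (32, 0.248), for sucrose and trehalose enzymes (26, 0.195), for class III peroxidases (45, 0.259) and for calcium sensors with EF hands (65, 0.138). These medians moved with the scaling and with 1 library. After median-of-ratios scaling they lay between -0.0119 (calcium sensors) and 0.173 (small auxin-up RNA genes). Without 15 min replicate 1 those of small auxin-up RNA genes (-0.0912), signalling peptides (-0.178), class III peroxidases (-0.101) and calcium sensors (-0.133) were negative. None of the 136 bHLH, 43 NAC, 26 expansin, 66 pectin-modifying, 51 sugar transporter, 61 glycolysis or 37 jasmonate genes was called, and 1 to 4 members of each had an unadjusted p of at most 0.05, which is 1.64% to 4.65% of a list, beside 2.21% of all genes. The lists with calls were AP2-EREBP (1 of 95), WRKY (1 of 56), MYB-type (3 of 153), C2H2 (1 of 259), lipid transfer proteins (1 of 46) and antioxidant enzymes (2 of 172), all higher, and respiratory chain (1 of 120) and ribosomal proteins (1 of 464), both lower. These shares ran from 0.216% (ribosomal proteins) and 0.386% (C2H2) to 2.17% (lipid transfer proteins), beside 0.323% of all genes, and with 1 to 3 genes a list nothing is read from them. The respiratory chain gene Lalb_Chr25g0284051, a NADH dehydrogenase, had 0, 2 and 3 at 20 min and 9, 3 and 7 at 15 min (log2 FC -1.58). The groups met at 3, and the call was lost without replicate 1 of 20 min and without replicate 1 or 3 of 15 min (log2 FC -1.98 to -0.98). The ribosomal gene Lalb_Chr06g0161211 (L36e) was at 0 in all libraries of 20 min and had 1, 1 and 5 at 15 min, a call lost in 4 of the 6 fits: without 15 min replicate 3 and without each of the 20 min libraries.

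Histone and ribosomal protein genes were lower at 20 min in flow cell 3 and not in flow cell 2, where each flow cell holds 1 library of either time. Core histones package DNA and are made when cells divide, and ribosomal proteins are made when cells grow. Of 50 histone genes, 44 were higher at 20 min in flow cell 1 and 48 in flow cell 2, while 47 were lower in flow cell 3. Their median differences were 0.484, 0.568 and -1.32, where all genes had 0.415, 0.0525 and 0. Of all genes tested, 61.0% and 50.4% were higher at 20 min in flow cells 1 and 2, and 43.0% were lower in flow cell 3. Of the 464 ribosomal protein genes with no organelle in their name, 381 and 393 were higher at 20 min in flow cells 1 and 2 and 387 were lower in flow cell 3, with median differences of 0.47, 0.485 and -0.856. After median-of-ratios scaling, which brought the medians of all genes to 0.0115, -0.0841 and 0.0622, the direction of flow cell 1 flipped for both lists (-0.0637 for histones and -0.0712 for ribosomal proteins). Flow cell 2 stayed above 0 (0.319 and 0.239) and flow cell 3 below (-1.19 and -0.73, with 47 of 50 and 384 of 464 genes lower). Over the 3 flow cells the lists had medians near 0 (-0.0642 for histones and 0.00386 for ribosomal proteins, or -0.292 and -0.214 after median-of-ratios scaling).

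The low shares were those of 20 min replicate 3. Shares and sums here cover all genes of a list, tested or not (51 histone and 500 ribosomal protein genes). Histones took 1.81%, 2.11% and 0.976% of the total at 20 min (flow cells 1, 2 and 3) and 1.96%, 1.7% and 2.1% at 15 min. Ribosomal proteins took 16.7%, 17.9% and 9.03% at 20 min and 18.9%, 15.1% and 12.3% at 15 min. In both lists 20 min replicate 3 had the lowest share of the 12 libraries, and it also had the highest photosystem sum (3218, against 405 and 461 in the other 20 min libraries). Early nodulin-93 and hypoxia induced proteins (8 genes tested) summed to 157, 214 and 3785 at 20 min and 142, 162 and 2611 at 15 min, so this list followed the flow cell at both times. The part of root tissue composition in these values was not tested, and fewer cells of a type and less RNA per cell cannot be told apart in whole root sections.

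Other lists differed between flow cells as well. Gibberellin-regulated and gibberellin enzyme genes (21 tested) had median differences of 0.585, 0.447 and -0.83 in flow cells 1, 2 and 3, and small auxin-up RNA genes had 1, 0.252 and -0.538. After the scaling these were 0.0907, 0.215 and -0.704 for the gibberellin list and 0.701, 0.0345 and -0.433 for the small auxin-up RNA genes, so flow cell 3 kept its sign. Aquaporins, the water channels, had 0.959, -0.141 and -0.41. Jasmonate and lipoxygenase genes were below 0 in flow cells 1 and 3 (-0.415 and -0.3) and at 0 in flow cell 2, although their overall median of -0.0432 came without a called gene.

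**Figure D5:**
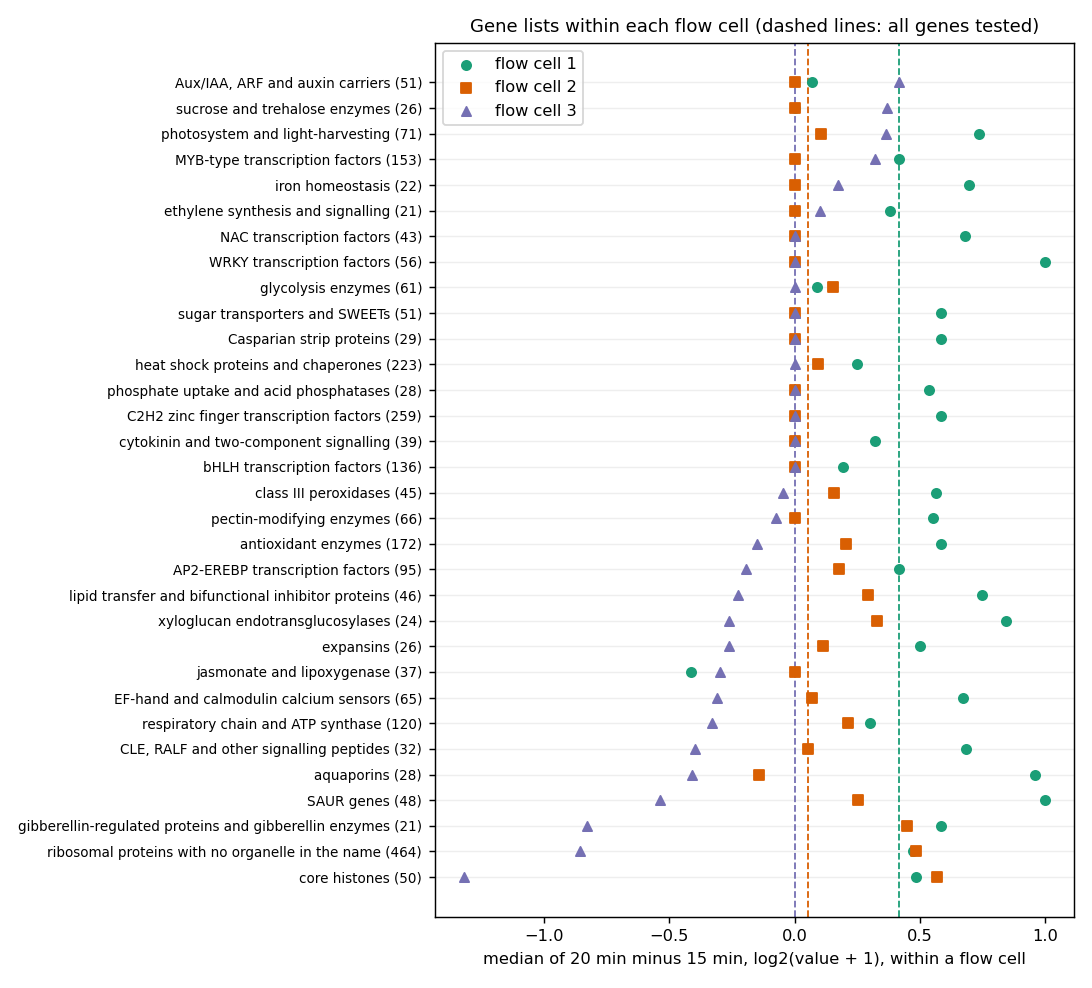
Median difference in log2(value + 1), 20 min minus 15 min, within each flow cell for gene lists with at least 20 genes tested (number in parentheses), ordered by flow cell 3, with dashed lines at the medians of all genes (0.415, 0.0525 and 0). Core histones and ribosomal proteins at the bottom are at 0.47 to 0.568 in flow cells 1 and 2 and at -1.32 and -0.856 in flow cell 3, and with median-of-ratios scaling, not drawn, flow cell 1 is at -0.0637 and -0.0712.

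The 17 genes that the study lists as up-regulated at every time of sucrose exposure were all tested here, and none was called or had an unadjusted p of at most 0.05. Their log2 FC between 20 and 15 min ran from -0.54 to 1.15 with a median of 0.0435, or -0.186 after median-of-ratios scaling, 9 of 17 were positive, and in none were the groups apart. The list was chosen on these same libraries against the control, so it is not independent evidence of any direction. The genes given next were chosen after their values were seen. The highest log2 FC belonged to Lalb_Chr20g0109071, a codeine 3-O-demethylase type enzyme, with 150, 465 and 101 at 20 min and 46, 102 and 135 at 15 min (log2 FC 1.15 ± 1.12). Its 20 min libraries spanned a wide range and overlapped those of 15 min. The bHLH genes of the list, Lalb_Chr02g0158971 and Lalb_Chr17g0347051, had 13, 39 and 12 and then 5, 5 and 18 at 20 min, against 13, 13 and 15 and then 3, 3 and 15 at 15 min. Both pairs of groups overlapped (log2 FC 0.41 and 0.47).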

How the data were processed

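Libraries were grouped by the labels' treatment field. Per the methods, the authors trimmed reads with Pychopper, mapped them with Minimap2 to CNRS_Lalb_1.0 and quantified genes with StringTie and Salmon in the Epi2me wf-transcriptomes workflow. The deposited gene values are named CPM, but they are whole numbers (100% of values) whose totals differ between libraries, so they were treated as a score of unknown scale and depth, and no count model was run on them. A second deposited table holds the authors' DESeq2 comparisons (fold changes and p-values) and was not used.

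Log2(value + 1) was fitted with limma 3.58.1 (R 4.3.3, empirical Bayes with trend) over all 12 libraries in 4 groups, with the contrast 20 min minus 15 min. Genes had to reach a value of 1 in 3 or more of the 6 libraries. p-values were adjusted by Benjamini-Hochberg over all 16714 genes, and they measure the spread between these libraries only. The pseudocount understates changes of low genes. For genes at 0 in all libraries of a group no fold is printed, and p can be too small: of 57 genes listed at 1 in all libraries of a group and 0 in the other, 55 had an unadjusted p of at most 0.05. Tables were made with Python 3.11.15 and pandas 2.3.3.

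Replicate numbers mark the flow cell, per the methods. Deviations of same-numbered libraries from their group means correlated at 0.102, 0.333 and 0.442, beside -0.429 to 0.313 between libraries of different flow cells. The value of flow cell 1 lies inside that range, so the pairing rests on the shared flow cell.

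Named genes were the 10 higher and 10 lower called genes with the smallest p and no overlap between groups, the 5 higher and 5 lower by p with a mean value of at least 20, called members of the 37 lists (up to 3 each) and the study's list. Members and lists were chosen with earlier results of these data known, and some list patterns were corrected from protein names before the fits. All 23427 IDs matched the RefSeq gene table of CNRS_Lalb_1.0, which gave names and coordinates. It does not give exons, so the exonic or intronic position is not stated. No sequences were used here, and the planned motif search was not run.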

Additional observations from a re-analysis of the deposited data

How the results depend on the processing

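The counts of called genes depended on how low values were handled. With a pseudocount of 0.5 there were 179 genes higher and 45 lower, with a pseudocount of 5 there were 0 and 2, with a filter of at least 5 in at least 3 libraries 13 and 4, and without a filter 32 were lower. Median-of-ratios scaling gave 22 higher. Leaving out 1 library gave 40 to 145 higher, 22 to 48 lower and 291 to 582 genes with an unadjusted p of at most 0.05. That last count was 63 under the stricter filter. With the replicate block (flow cell as a term) 48 genes were higher and 27 lower, and in the block fit over the 15 and 20 min libraries only 672 genes had an unadjusted p of at most 0.05. The replicate block with median-of-ratios scaling, an alternative added after the first fits were seen, gave 40 lower. No gene had an adjusted p of at most 0.05 in any of the 16 alternatives. Among the 34 named genes the block over all 12 libraries changed 1 call, that of uS15c, a pseudocount of 5 ended 24 calls, and no named gene changed direction under any alternative. The causes were not tested, beyond the low values that the pseudocount and filter act on. Read depth is unknown, 3 libraries per group limit precision, and a gene listed at 0 may have been missed.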
